A study of Linum usitatissimum with 4 samples.

Results

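Cytosines in the CHH context that lie close to a gene start were described in shoot apices of flax (Linum usitatissimum, cultivar JRF-2) after heat, after 5-azacytidine, and after both. The members are the sites in the authors' 3 deposited CHH tables whose distance to the nearest gene start is 2000 bp or less, on either side. They number 303 listings of 253 cytosines near 98 genes, out of 1596 CHH listings and 1894 listings in all contexts. A listing is 1 cytosine in 1 comparison. There were 25 member listings for heat, 98 for 5-azacytidine and 180 for the combined treatment. Distance alone chose them from those tables, so the direction of their methylation differences is not set by the choice. Their size has a floor, since the tables hold only sites past 5 points and a q-value limit of 0.05.

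The study used whole-genome bisulfite sequencing, which turns cytosines without the mark into a base that is read as thymine and leaves methylated ones as they are. The control seedlings were untreated and kept at 22 ± 2 °C. The heat group received no 5-azacytidine and was held at 40 ± 2 °C for 4 h daily over 5 days, then returned to the culture room. The 5-azacytidine group came from seeds soaked in the compound at 1 mM for 24 h in the dark at 20 °C and was kept at 22 ± 2 °C. The combined group came from soaked seeds and was later heated on the same schedule. All groups were of the same cultivar and were labelled 21 days old, with a photoperiod of 16 h. Each group is 1 library from the shoot apices, 3 to 5 cm long, of 10 pooled seedlings. No value therefore has a replicate error, no test between groups was possible, and the same control library stands in all 3 comparisons. An apex holds many cell types, so a change in the mix of cells and a change of methylation within cells cannot be told apart. Methylation tables hold no expression of marker genes against which the tissue label could be checked.

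In plants, cytosines are methylated in the CG, CHG and CHH contexts, where H is any base but G. CHH sites are asymmetric: the other strand carries no matching cytosine, so the mark cannot be copied from it after replication and has to be set anew, by RNA-directed DNA methylation through the DRM enzymes or, mainly in heterochromatin, by CMT2. In plant genomes the edges of transposons near genes are a known place for RNA-directed CHH methylation. 5-azacytidine is a cytidine analogue that is built into DNA and traps DNA methyltransferases.

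The listed cytosines were lower in the treated library than in the control on both sides of the gene start in each comparison, with 9 exceptions. Differences are the values of the authors' deposited tables, read as the treated minus the control methylation percentage and given in points. Of the 303 listings 294 were lower, which is 97.0% with an exact (Clopper-Pearson) 95% interval of 94.4 to 98.6. Intervals here cover counting error only and treat sites as independent, which neighbouring cytosines are not. The depth behind each site is unknown. Only sites that passed limits of 0.05 on the q-value and 5 points on the difference are in the tables, so absence from a table does not show that a site was unchanged.

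On the upstream side, heat had 16 listings near 11 genes, of which 14 were lower, a share of 87.5% (61.7 to 98.4). The upstream sites numbered 66 near 40 genes for 5-azacytidine, with 64 lower (97.0%, 89.5 to 99.6). The combined treatment had 119 upstream listings near 60 genes, with 115 lower (96.6%, 91.6 to 99.1). On the downstream side, all 9 heat listings were lower, as were 31 of 32 for 5-azacytidine and 61 of 61 for the combined treatment (94.1 to 100). The intervals of the upstream and downstream shares overlapped in each comparison. The background over all listed CHH sites was close to these shares, with 89.4% lower for heat, 93.4% for 5-azacytidine and 97.6% for the combined treatment. With both sides together the members stood at 92.0%, 96.9% and 97.8%.

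Falls near gene starts were mostly of modest size. The median difference upstream was −11.4 points for heat, −9.38 for 5-azacytidine and −9.73 for the combined treatment, from the authors' deposited tables. Downstream the medians were −9.80, −7.99 and −9.18 points. In each comparison the downstream median was nearer to 0, by less than the interquartile range of the sites. Differences of 20 points or more were seen at 4 listings for heat, 13 for 5-azacytidine and 26 for the combined treatment, together 14.2% of members. The background over all listed CHH sites was 13.0% for heat, 11.4% for 5-azacytidine and 11.7% for the combined treatment, and 11.7% over all 3.

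**Figure D1:**
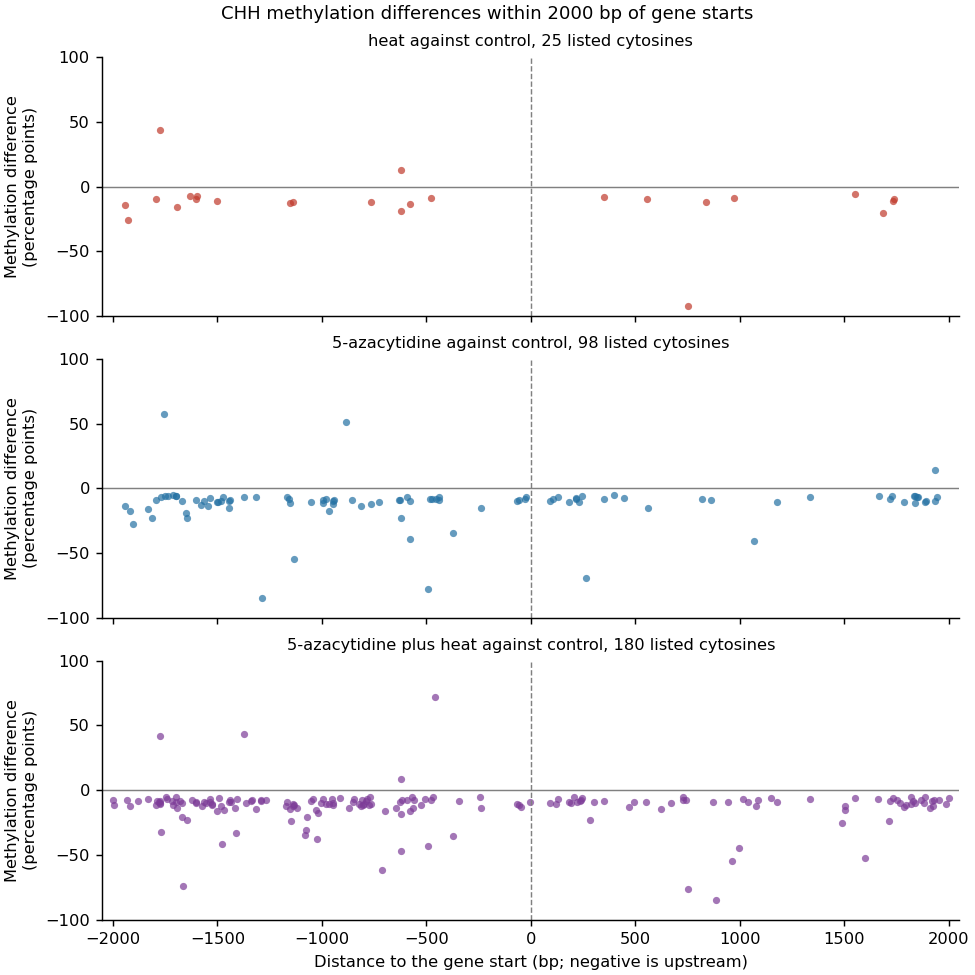
Methylation difference of each listed CHH cytosine (percentage points, treated minus control, y axis) against its distance to the nearest gene start (bp, negative upstream, x axis), in 1 panel per comparison. Almost all points lie below 0 on both sides, and 8 of the 9 points above 0 lie upstream.

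The members lay upstream of the start in 64.0% of listings for heat (42.5 to 82.0), 67.3% for 5-azacytidine (57.1 to 76.5) and 66.1% for the combined treatment (58.7 to 73.0). The heat interval includes 50%, and within 1000 bp of a start 5 of 10 heat listings were upstream. Counted by gene, 66 of the 98 genes had listings upstream only, 26 downstream only and 6 on both sides. Among listed CHH sites between 2000 and 10000 bp from a start, the upstream share was 66.0% for heat, which is above the members' share, 48.6% for 5-azacytidine and 52.9% for the combined treatment. Beyond 10000 bp these shares were 56.9%, 61.5% and 58.4%. Pooled over the comparisons the share was 66.3% for the members, 52.7% from 2000 to 10000 bp and 59.1% beyond. The median size of the difference hardly varied with distance, at 9.71 points within 2000 bp, 9.67 from there to 10000 bp and 9.48 beyond. The members made up 20.3% of the heat list (13.6 to 28.5), 21.5% of the 5-azacytidine list (17.8 to 25.6) and 17.7% of the combined list (15.4 to 20.2). These intervals overlap.

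Within the window the listings were sparse just upstream of the start. In the 500 bp next to it there were 1 for heat, 12 for 5-azacytidine and 12 for the combined treatment. In the next 500 bp upstream these counts were 4, 18 and 35, in the third 3, 15 and 36, and in the fourth, which ends at 2000 bp, 8, 21 and 36. Downstream the third 500 bp held the fewest listings in each comparison, level with the bin before it for 5-azacytidine. The first 500 bp held 1, 12 and 15 listings, the next 500 bp 4, 3 and 12, the third 0, 3 and 8, and the last 4, 14 and 26. Several genes contribute many listings to a single bin, and how many covered CHH cytosines each bin holds is not known, so the counts are no rates.

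**Figure D2:**
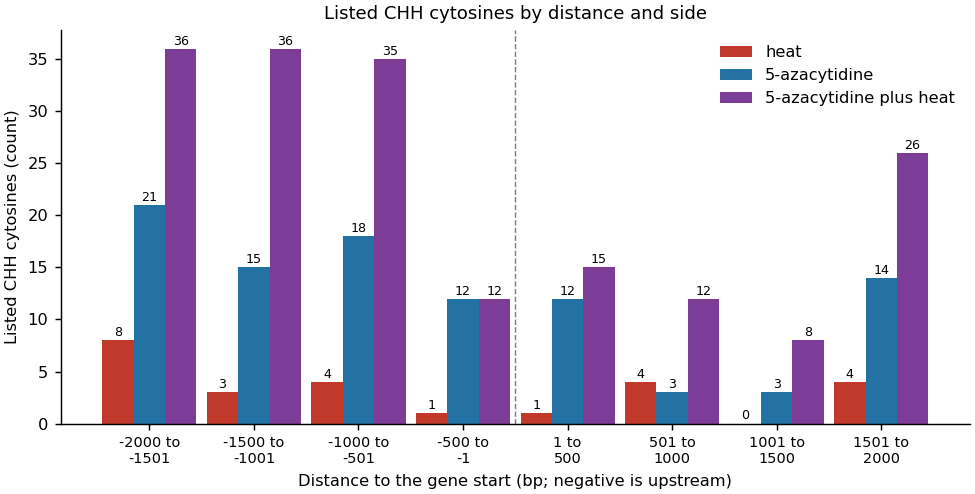
Number of listed CHH cytosines (y axis) in bins of 500 bp by distance to the gene start (x axis, negative upstream), for the 3 comparisons, with the count above each bar and a dashed line at the start. The upstream bin next to the start holds 1, 12 and 12 listings, fewer than any other upstream bin in each comparison.

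The sites nearest to a start were all lower. In the authors' deposited tables the closest was 6 bp upstream of Lus10008011 on chromosome Lu7, at −8.94 points in the combined treatment, and the same gene had −10.2 points 94 bp downstream. For 5-azacytidine the closest upstream sites lay 24 and 27 bp before Lus10011586, at −6.42 and −8.02 points in the authors' deposited table. On the downstream side the closest were 90 bp after the start of Lus10007146, at −9.68 points, and 108 bp after that of Lus10007187, at −8.16 points, again from the authors' deposited table. For heat the closest upstream site was 480 bp before Lus10036720, described as a 2-hydroxy-acid oxidase, the enzyme family of photorespiratory glycolate oxidase, at −8.70 points in the authors' deposited table. No listed heat site lay nearer to a start than 348 bp, downstream of Lus10002716, at −8.05 points in the authors' deposited table. At the edge of the window, the last sites inside were 2000, −1999 and −1994 bp from a start, with −6.22, −7.81 and −11.1 points in the authors' deposited tables. The first outside were at 2003, 2009 and 2025 bp, with −7.96, −12.2 and −6.68 points in the authors' deposited tables.

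Listings near gene starts took 2 forms, many modest falls crowded at few genes and single large differences at many genes. A cytosine counts once for each comparison that lists it. Listings per gene were 3.09 for the members, 3.58 from 2000 to 10000 bp and 5.56 beyond, so crowding was not particular to the members. The 24 genes with 5 or more listings held 184 listings, or 60.7% of all members. Their median size was 8.93 points, with 4 listings at 20 points or more. The 45 genes with 1 listing had a median size of 25.7 points, and 28 of these 45 reached 20 points. Between them stood 16 genes with 2 listings (median 11.0 points) and 13 genes with 3 or 4 (median 9.74). The authors' q-values ran the other way: 34 of the 184 listings at the crowded genes had a q-value below 0.001, against 1 of the 45 at the genes with a single listing. That 1 lay 1527 bp upstream of Lus10023129, described as the pre-mRNA splicing factor PRP8, at −11.0 points in the authors' deposited table for the combined treatment. Over all members 38 of 303 listings had a q-value below 0.001, and over all listed CHH sites 133 of 1596. Listings farther from a start were not split by listings per gene, so the 2 forms are not shown to be particular to the members.

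**Figure D3:**
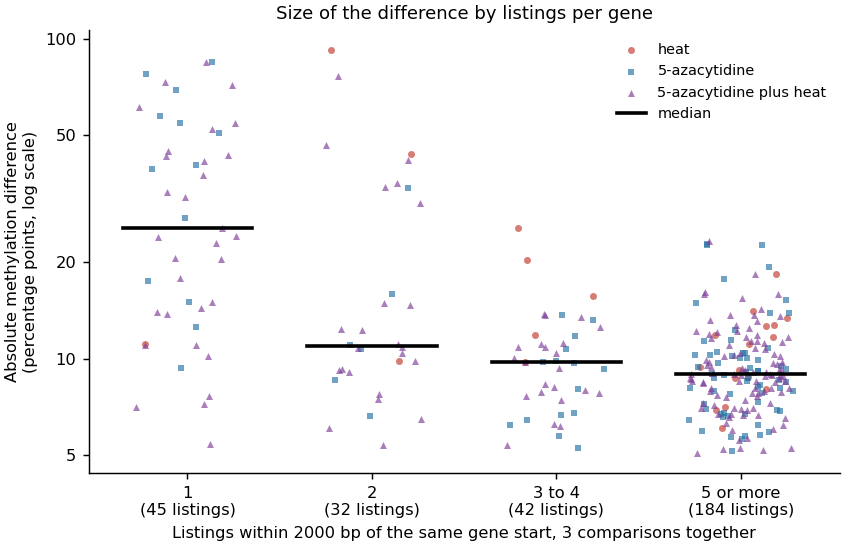
Size of the methylation difference (absolute percentage points, log scale, y axis) of each listing, grouped by the number of member listings of its gene (x axis). Bars mark medians, which are highest for genes with 1 listing (25.7 points) and lowest for genes with 5 or more (8.93 points).

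The same contrast held for spacing. Of the listings between 5 and 10 points, 82.7% had another listed CHH cytosine of the same comparison within 500 bp, of those from 10 to 20 points 70.4%, and of those at 20 points or more 20.9%, or 9 of 43. Over all listed CHH sites the shares were 79.7%, 70.1% and 24.1%, so this pattern is shared with sites far from genes. Read depth at the lone sites is unknown, and its part in the pattern was not tested.

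The crowded genes show how the modest falls were laid out. Lus10007187 on Lu7 had the most listings, 19 at 14 cytosines, and no family description. All 19 were lower, from −5.17 to −14.3 points in the authors' deposited tables, and they ran from 1154 bp upstream to 468 bp downstream of its start. Its neighbour Lus10007186 faces it: the first reads forward from position 12207749 and the other in reverse from 12208758, so the starts lie 1009 bp apart and the transcripts point towards each other. Together they carried 26 listings at 20 cytosines over 3013 bp, all lower, with a median of −9.82 points in the authors' deposited tables. The q-value was below 0.001 for 11 of the 26. The lowest value of Lus10007186 was at position 12207512, 237 bp upstream, with −15.2 points for 5-azacytidine and −13.7 for the combined treatment in the authors' deposited tables. No heat listing lay near that gene within the window.

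Lus10002716 on Lu14 came next with 17 listings, 15 of them lower. It reads in reverse from position 8137011, and Lus10002717, a serine/threonine protein kinase, reads forward from 8138343, so this pair is divergent, with starts 1332 bp apart. The pair had 19 listings at 12 cytosines, 17 of them lower. At position 8137630, 619 bp upstream of Lus10002716, the authors' deposited tables give −18.5 points for heat, −22.7 for 5-azacytidine and −18.3 for the combined treatment. These have the smallest q-values of falling member sites, 4.75e-10, 4.31e-19 and 2.48e-09. Only 2 bp away, at 8137632, the difference was 12.6 points for heat and 8.48 for the combined treatment in the authors' deposited tables.

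At Lus10007146 on Lu15, which has no family description, 8 of 10 listings lay 90 to 241 bp downstream, and the other 2 were 1 cytosine 59 bp upstream in 2 comparisons. The authors' deposited tables give this gene −6.98 to −11.3 points, with no heat listing. Lus10015447 on Lu7, related to LTV1, a protein needed in yeast for the small ribosomal subunit, had 10 listings from 972 to 1887 bp downstream, at −5.62 to −12.2 points in the authors' deposited tables. Lus10003218 on Lu9, a lipoate-protein ligase, which attaches the lipoate cofactor to enzymes, had 9 listings between 1664 and 1952 bp downstream. Its range was −5.05 to −11.4 points in the authors' deposited tables, and again heat gave no listing. At any distance this gene had 13 CHH listings.

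Other runs lay upstream. Lus10007031 on Lu8, the copper chaperone that loads copper into superoxide dismutase, had 8 listings from 1438 to 786 bp upstream, 7 of them in the combined treatment. They ranged from −6.70 to −10.2 points in the authors' deposited tables. Lus10013917 on Lu15, placed in a family named after sterol regulatory element-binding protein, had 8 listings from 1776 to 1418 bp upstream, at −5.67 to −13.6 points in the authors' deposited tables. Its 2 heat listings, at −7.06 and −6.92 points, were at other cytosines than those of the remaining comparisons. At any distance this gene had 15 CHH listings. Lus10024541 on Lu13 had 8 listings from 1999 to 1052 bp upstream, at −7.81 to −14.1 points in the authors' deposited tables. It had 38 CHH listings at any distance, so these 8 are only a part of them. The other genes with 5 or more listings included a pentatricopeptide repeat gene (Lus10025047), a riboflavin kinase (Lus10028605), a beta-glucosidase (Lus10005706), a zinc transporter (Lus10009598) and a subunit of mitochondrial complex I (Lus10010288).

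For heat, the largest upstream fall was at Lus10013609 on Lu8, a gene with no family description, at −25.6 points 1930 bp before the start and −15.7 points at 1693 bp in the authors' deposited table. Downstream, the lowest value of all members was at position 13216786 of Lu4, 753 bp after the start of Lus10015736, whose product has an HNH endonuclease domain. The authors' deposited tables give −92.3 points there for heat and −76.5 for the combined treatment. The q-values, 0.0464 and 0.0418, lie just under the limit. Lus10002973 on Lu10, a DNA helicase, had −20.4 points for heat 1683 bp downstream in the authors' deposited table, and −9.75 points at 1737 bp. A protein kinase gene, Lus10021580, had −11.1 points.

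For 5-azacytidine, the deepest upstream fall was −84.6 points, 1287 bp before Lus10019576 on Lu11, in the authors' deposited table. Lus10009022 on the same chromosome, related to the RNA helicase DHX30, had −77.8 points at 490 bp, and Lus10036258 on Lu6 had −54.5 points in the authors' deposited table. Lus10017931 on Lu2, the chloroplast nucleoside diphosphate kinase II, which passes phosphate between nucleotides, had −39.3 points at 576 bp before its start in the authors' deposited table. These 4 genes had a single listing each. Downstream, the lowest values in the authors' deposited table were −69.2 points at Lus10022379 on Lu14, which has a Myb/SANT-like DNA-binding domain, 265 bp after its start, and −40.5 points at Lus10005512 on Lu8. The next were smaller: −15.0 points at Lus10011647, −11.4 at Lus10003218 and −10.7 at Lus10020906, related to the copper carrier ATOX1, in the authors' deposited table.

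For the combined treatment, the largest upstream falls included sites near regulators. The authors' deposited table gives −73.8 points 1664 bp before Lus10008010 on Lu7, related to MYB transcription factors, and −61.3 points 713 bp before Lus10019788 on Lu6, placed with CCAAT/enhancer binding proteins. The F-box gene Lus10040760 on Lu3, of the family that picks targets for ubiquitin ligases, had −46.8 points at 623 bp in the authors' deposited table. Its q-value of 0.000105 was below those of the other large falls named for this treatment. Lus10009625 on Lu10, of the DVL family of small peptides that affect plant form in Arabidopsis, had −43.2 points at 491 bp, and Lus10023354, tied to SIT4 phosphatase, had −41.4 points in the authors' deposited table. Downstream, the authors' deposited table gives −84.6 points at Lus10038267 on Lu11, −54.6 at the plant transposase gene Lus10007402 on Lu7, −52.3 at Lus10034920 and −44.6 at Lus10011726.

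The 9 rises lay at 7 genes, and 8 of them were upstream. The highest was 72.1 points in the combined treatment, 458 bp before Lus10028354 on Lu5, related to PMT27, a family of probable pectin methyltransferases in Arabidopsis. For 5-azacytidine the authors' deposited table gives 57.7 points 1755 bp before Lus10003402 on Lu1, related to potassium transporter 13. It also gives 51.0 points 885 bp before Lus10003777 on Lu3, a histone-lysine methyltransferase of the ASHR3 type. Lus10008373 on Lu14 had 43.6 points for heat and 41.9 for the combined treatment at the same cytosine, 1774 bp upstream, in the authors' deposited tables. Lus10012056 on Lu1 had 43.3 points in the combined treatment in the authors' deposited table. The remaining rises, the 2 at Lus10002716 given above and 13.9 points at 1935 bp downstream of Lus10030337 for 5-azacytidine, lay among falls: in the authors' deposited tables the other 6 listings of Lus10030337 were between −5.76 and −8.53 points. The other 91 genes had falls only.

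Of the 253 cytosines, 211 were listed in 1 comparison, 34 in 2 and 8 in all 3. Over all 1596 CHH listings at any distance, 172 cytosines were listed in more than 1 comparison. The number of distinct cytosines behind the 1596 listings was not computed, so no matching share is given. Since the comparisons share the control library, values are given side by side and no likeness is drawn from them. At Lus10007187, position 12209912 had −12.7 points for heat, −11.4 for 5-azacytidine and −14.3 for the combined treatment in the authors' deposited tables. At Lus10025047, of the pentatricopeptide repeat family that acts on organelle RNA, position 14357199 of Lu6 had −11.1, −10.4 and −15.9 points in the authors' deposited tables. At Lus10019181, position 3486546 of Lu3 had −11.9, −11.7 and −10.9 points in the authors' deposited tables. At the zinc transporter gene Lus10009598 on Lu10, position 150730 had −22.9 points for 5-azacytidine and −23.3 for the combined treatment. Lus10005307 on Lu3 had −34.1 and −35.4 points at 373 bp upstream in the same authors' deposited tables. By gene, 55 had listings in 1 comparison, 32 in 2 and 11 in all 3. The matching counts of genes at any distance were not computed, so the 55, 32 and 11 are not read as particular to the members.

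**Figure D4:**
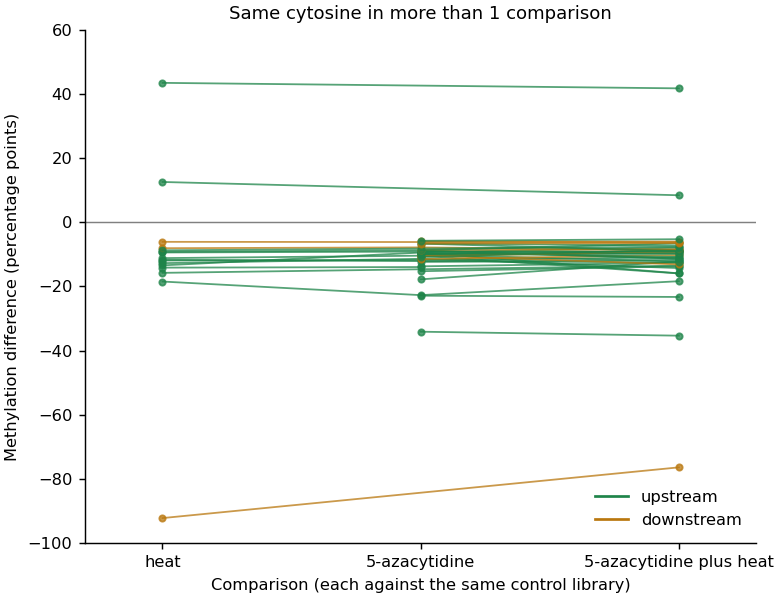
Methylation difference (percentage points, treated minus control) of the member cytosines listed in 2 or 3 comparisons, with 1 point per comparison that lists it and a line joining the points of a cytosine; all comparisons share 1 control library. At Lus10015736 the points stand at −92.3 and −76.5, and at Lus10008373 at 43.6 and 41.9.

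Cytosines of the other contexts listed beside the members were mixed in direction. Within 500 bp of a member, in the same comparison, the authors' deposited CG and CHG tables hold 80 listings near 13 genes, of which 51 were lower and 29 higher. By comparison, 8 of 19 were lower for heat, 17 of 23 for 5-azacytidine and 26 of 38 for the combined treatment. Over all CG and CHG listings at any place, 35 of 61, 89 of 111 and 96 of 126 were lower. The 29 rises lay at 3 of these genes, Lus10002716 (15 of 41 listings), Lus10024541 (8 of 12) and Lus10007187 (6 of 6). At Lus10007146, 6 CG listings had −11.8 to −15.4 points in the authors' deposited tables, beside CHH falls of −6.98 to −11.3.

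Of the CG and CHG listings, 20 lay within 5 bp of a member, and 10 of these had the opposite sign. All 10 lay at Lus10007187 (6 of 6) and Lus10002716 (4 of 8), some at the same cytosine in several comparisons. At the 10 genes without CG or CHG rises, 0 of 6 had the opposite sign. Since nearly all members are falls, that count follows from the choice of genes and is no contrast. At Lu14, the CHG cytosine at 8137629 had 18.7 points for heat, 18.9 for 5-azacytidine and 12.1 for the combined treatment in the authors' deposited tables. The CHH cytosine next to it, at 8137630, is the one with −18.5, −22.7 and −18.3 points. At Lu7, the CHG cytosine at 12209895 had 12.5 points for heat and 10.7 for the combined treatment in the authors' deposited tables, and the adjoining CHH cytosine at 12209896 had −11.7 and −12.5. The CG cytosine at 12209907 had 17.4 and 16.4 points in these comparisons, 5 bp from the CHH cytosine at 12209912 with −12.7 and −14.3. At Lu13, CG cytosines at 6960009, 6960089 and 6960297 had 18.0, 21.1 and 24.6 points for heat in the authors' deposited table, and the CHH cytosine at 6960136 between the last 2 had −14.1. Another CG cytosine of that stretch, at 6960064, had −16.0 points for heat in the authors' deposited table. How reads were placed in these stretches is not known, and its part in the opposite signs was not tested.

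**Figure D5:**
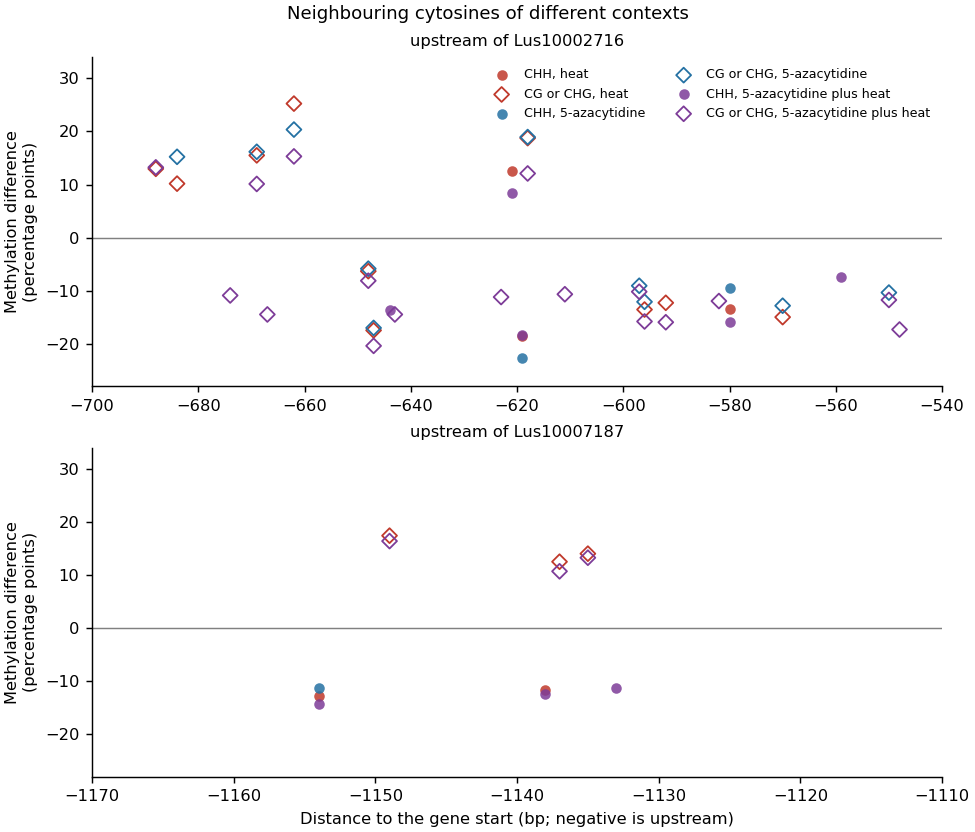
Methylation difference (percentage points, treated minus control, y axis) of CHH members and of CG and CHG listings beside them, by distance to the gene start (bp, x axis), in stretches upstream of Lus10002716 and Lus10007187. At Lus10007187 the 6 CG and CHG points lie above 0 and the CHH points below it.

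Of the 98 genes, 69 have a family description, and 29 of these fall in at least 1 of 11 gene lists made by words in those descriptions. The redox list had 14 listings at 2 genes, Lus10007031 and Lus10010288, all upstream and all lower, with a median of −8.58 points, against −8.98 over the 50 listings of that list at any distance, of which 48 were lower. For signalling (kinases, phosphatases and the like) all 13 listings at 6 genes were lower, with a median of −11.1 points, against −9.93 over 120 at any distance, of which 118 were lower. Of these 13, 7 belong to the riboflavin kinase gene Lus10028605, a metabolic enzyme of flavin synthesis that matched by the word kinase. The protein turnover list had 10 of 10 lower at 5 genes, with a median of −9.17 points, against 40 of 46 lower and −9.55 points at any distance. It includes the ubiquitin ligase UPL4 gene Lus10019908, at −7.62 points in the authors' deposited table. Of the transport list 10 of 11 listings were lower, against 41 of 43 at any distance, the near-start exception being the potassium transporter gene named above. Lus10037147, related to the phosphate exporter PHO1, had −24.0 points in the authors' deposited table.

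Heat shock proteins and chaperones had 9 of 9 listings lower, all upstream and none of them in the heat comparison. At any distance this list had 12 of 13 lower, 12 of 13 upstream and 0 heat listings. Of the 9 near a start, 8 belong to the copper chaperone gene Lus10007031. The other is Lus10028577, which has the alpha-crystallin domain of small heat shock proteins, at −14.0 points in the combined treatment, 566 bp upstream, in the authors' deposited table. The transcription factor list had 5 of 5 lower at 4 genes, against 24 of 28 at any distance and 3 of 6 there for heat, with Lus10008010 and Lus10022379 the lowest. It also holds Lus10011338, a FYVE zinc finger gene at −24.2 points in the authors' deposited table, a domain that binds membrane lipids and not DNA. Its words did not match Lus10019788 (CCAAT/enhancer binding protein) or Lus10013917 (sterol regulatory element-binding protein), so it is no full count of such genes. Cell wall genes, of interest in a fibre crop, had 6 of 6 lower at 2 genes, against 15 of 15 at any distance. They were a beta-galactosidase gene, Lus10015616, at −27.7 points, and Lus10015694, related to arabinogalactan peptide 23, at −6.61 to −22.6 points, in the authors' deposited tables. The words for cell wall did not match the PMT27-related Lus10028354, with a rise of 72.1 points in the authors' deposited table. They also missed Lus10039784, related to galacturonosyltransferase 10, at −20.5 points in the authors' deposited table, so this list is no full count either. The list for DNA methylation, silencing and chromatin had 4 of 6 lower, against 29 of 31 at any distance. Its rises were at ASHR3 and at the PMT27-related gene, which matched by the word methyltransferase, and its falls at a DNA helicase and an RNA helicase. The transposase gene and the plastid kinase named above were the only entries of their lists, and the hormone list had 0 listings near a start.

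The members lay on all 15 chromosomes, from 4 listings on Lu11 to 53 on Lu7 and 46 on Lu14. Of the 24 genes with 5 or more listings, 5 are on Lu7 and 4 on Lu14. They are the authors' nearest gene starts, and no expression values were analysed here, so no link between a site and the activity of its gene is implied.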

How the data were processed

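The 4 libraries are 1 per group, grouped by the labels' treatment. Per the submitters' processing notes, the authors used Trimmomatic, FastQC, BWA, MethylDackel and methylKit. Versions, the genome build and the aligner's bisulfite mode are not given in the sources used here. Per the file headers, the deposited columns hold coordinates, p-value, q-value, methylation difference, gene identifiers and the distance to the nearest gene start. Every p-value and q-value was computed by the authors from 1 treated and 1 control library. As deposited, the methylation difference is a score in percentage points made by the authors. A positive value was taken to mean more methylation in the treated library, the methylKit convention, which the files do not state. If it were coded the other way, higher and lower would swap.

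Each of the 1596 CHH listings spans 1 bp. The highest q-value of the members was 0.0497 and the smallest absolute difference 5.05 points. Depth is unknown, because coverage and the methylation level of each library were not analysed here. Positions are the deposited starts, which may count from 0 or 1. Members were selected with an absolute distance of 2000 bp or less, negative meaning upstream. All 172 CHH cytosines found in several tables carry 1 gene and 1 distance. Strand entries differ for 77 of these and were left aside. Genes were followed by the transcript identifier, and 2 member listings whose gene name differed took the usual one. Only positions and differences of the CG and CHG tables were used.

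The members, gene lists and naming rule were chosen with earlier results of these data known. The rule names, per comparison and side, the 5 largest falls, the 3 largest rises and the 2 sites nearest to the start. It adds cytosines listed in several comparisons (up to 10), the 8 genes with most listings and the 2 strongest listings per gene list. The gene pairs, Lus10023129, further list members and the CG and CHG examples were chosen after their values were seen. Family descriptions are the authors' text. Counts, medians and exact 95% binomial intervals were computed with Python 3.11.15, pandas 2.3.3 and scipy 1.17.1, and the counting steps were checked on simulated data. Alternatives were a q-value limit of 0.001, a difference of at least 10 points, a window of 1000 bp, 1 value per gene, joining sites within 100 bp, and leaving out the gene with the most listings in each comparison.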

Additional observations from a re-analysis of the deposited data

How the results depend on the processing

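Of 72 recomputed values, 58 stayed within the counting interval of the main value and 14 moved further. A reversal, counted as a move across 50%, was defined only for the shares lower and upstream, where 0 were seen. For the near-start share it was not defined. The upstream share for heat came to 50% within 1000 bp, from 64.0%. The share lower ranged from 75% to 100% over these alternatives, the 75% being 3 of 4 upstream heat sites at a q-value limit of 0.001. With a q-value limit of 0.001, the near-start share was 35.7% for heat (5 of 14 sites) and 31.6% for the combined treatment (24 of 76). The upstream share under that limit was 55.6% of 9 sites for 5-azacytidine and 79.2% of 24 for the combined treatment, and the share lower upstream for 5-azacytidine was 100% of 5 sites. Within 1000 bp the near-start share was 8.13%, 9.89% and 7.27% for heat, 5-azacytidine and the combined treatment, which follows from the narrower window. With 1 value per gene and side, at the mean distance of its listings, it was 27.0% for 5-azacytidine and 26.0% for the combined treatment. The share lower downstream for 5-azacytidine was 100% with the limit of 0.001, within 1000 bp, with sites joined, and without the gene with the most listings, each of which drops the 1 rise there or joins it to falls. For 5-azacytidine the gene left out was Lus10030337, which holds that rise and ties with Lus10007187 at 6 listings.

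Replicates were not left out in turn, since each group is 1 library. No paired analysis was possible because the groups hold 1 library each and the tables carry no replicate columns. Unknown coverage limits how firmly single sites can be read, most of all the lone large differences.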
